A study of Mus musculus with 6 samples.

Results

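The brush border disaccharidases are the enzymes on the surface of absorptive enterocytes that split dietary sugars into monosaccharides. Their genes in the mouse are Lct, Sis, Mgam and Treh. These 4 genes were taken by symbol from a table of 45777 genes measured in the small intestine, and all 4 passed the filter on low counts that left 18456 genes for testing. The choice was made by gene name, but with earlier results of these data known.

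Lactase (Lct) splits the milk sugar lactose, and its expression declines after weaning in most mammals. Sucrase-isomaltase (Sis) splits sucrose and the branch points of starch fragments. Maltase-glucoamylase (Mgam), which shares ancestry with it by gene duplication, releases glucose from the ends of starch fragments. Trehalase (Treh) splits trehalose, the sugar of fungi and insects, and unlike the others it is held to the membrane by a lipid anchor. In the mouse as in other mammals, lactase is most abundant in the middle of the small intestine and low at its distal end.

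The study sequenced total RNA of the small intestine from 6 samples, 3 labelled PKCzeta overexpression (titles DIO-zeta, replicates 2-1, 4-1 and 4-2) and 3 labelled control (titles DIO-GFP, replicates 1-1, 1-4 and 3-1). PKCzeta, the product of Prkcz, belongs to the atypical class of protein kinase C, and GFP is a green fluorescent protein. All 6 titles begin with DIO, a term left without explanation in the labels. Strain, age, diet, the part of the intestine taken, how the overexpression was made and whether each library is a separate animal are not given either. The p-values therefore measure the spread between these libraries, which may be technical.

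The libraries held 77573133 to 93742978 counts. Prkcz itself averaged 79.9 ± 21.6 CPM (counts scaled to a common library size) with the PKCzeta label and 88.7 ± 15.8 CPM with the GFP label (SD, n = 3 each). Its fitted log2 difference was -0.15 with an SE of 0.24 (95% interval -0.69 to 0.39). Counts on the mouse gene Prkcz were thus not higher with the PKCzeta label. Whether RNA of an overexpression construct would be counted on this gene is not known. Every direction below is one between libraries labelled PKCzeta and libraries labelled GFP. Ribosomal RNA rows held 0.956% to 4.44% of counts with the PKCzeta label and 1.35% to 4.66% with the GFP label. Among regional markers, the 2 distal genes with the highest mean CPM were Fabp6 and Slc10a2. Fabp6 was at 2544 to 2949 CPM with the PKCzeta label and 2601 to 4215 CPM with the GFP label, and Slc10a2 was at 1602 to 2932 CPM with the PKCzeta label and 1318 to 1975.5 CPM with the GFP label. The duodenal genes Pdx1 and Tmprss15 had 0 counts in 5 and in 4 of the 6 libraries, where 0 allows up to 0.0287 to 0.0378 CPM (3 counts, counting error only). Other markers of the proximal small intestine were present, with means over all libraries of 1310 CPM for Apoa4, 448 for Ada and 193 for Rbp2. The means were 76.3 CPM for Fabp1, 50.9 for Slc40a1, 3.61 for Gata4 and 1.41 for Cybrd1.

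All 4 genes are protein-coding, lie on different chromosomes and overlap no other gene of the RefSeq table (build GRCm38.p6, the assembly that mm10 names). Lct (Entrez 226413) lies on the minus strand of chromosome 1 from 128284756 to 128328318. Sis (Entrez 69983) lies on the minus strand of chromosome 3 from 72888557 to 72967863. Mgam (Entrez 232714) lies on the plus strand of chromosome 6 from 40628831 to 40769123. Treh (Entrez 58866) lies on the plus strand of chromosome 9 from 44673233 to 44686305.

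The promoters are shown because the libraries also measure the transcription factors known to act on genes of this kind, CDX2, the HNF1 and HNF4 factors and the GATA factors. Each window runs from 250 bases before to 50 bases after the RefSeq start site of GRCm38.p6, written 5′ to 3′ on the gene's own strand, at chr1:128328269-128328568 for Lct, chr3:72967814-72968113 for Sis, chr6:40628581-40628880 for Mgam and chr9:44672983-44673282 for Treh. Capitals mark every match, on either strand, to 3 short motifs: GATAA (core of GATA sites), TTTAT (core of CDX sites, which a TATA box can also match) and ATTAAC (a half-site of HNF1).
Lct: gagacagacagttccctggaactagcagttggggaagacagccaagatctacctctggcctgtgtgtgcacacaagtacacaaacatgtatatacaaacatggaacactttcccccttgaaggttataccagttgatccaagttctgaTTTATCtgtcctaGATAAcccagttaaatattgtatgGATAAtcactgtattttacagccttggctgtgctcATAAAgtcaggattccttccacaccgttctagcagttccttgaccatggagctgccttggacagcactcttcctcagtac
Sis: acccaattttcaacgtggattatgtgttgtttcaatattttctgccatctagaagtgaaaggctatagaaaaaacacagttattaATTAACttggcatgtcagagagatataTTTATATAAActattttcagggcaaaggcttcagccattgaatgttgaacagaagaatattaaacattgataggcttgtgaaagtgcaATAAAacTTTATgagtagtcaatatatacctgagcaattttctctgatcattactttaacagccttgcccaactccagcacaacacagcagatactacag
Mgam: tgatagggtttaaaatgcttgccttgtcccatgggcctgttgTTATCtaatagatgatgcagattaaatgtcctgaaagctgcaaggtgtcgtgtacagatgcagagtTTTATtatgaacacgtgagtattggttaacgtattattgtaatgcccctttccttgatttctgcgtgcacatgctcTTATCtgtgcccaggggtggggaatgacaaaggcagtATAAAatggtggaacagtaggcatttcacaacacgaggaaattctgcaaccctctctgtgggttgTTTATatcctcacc
Treh: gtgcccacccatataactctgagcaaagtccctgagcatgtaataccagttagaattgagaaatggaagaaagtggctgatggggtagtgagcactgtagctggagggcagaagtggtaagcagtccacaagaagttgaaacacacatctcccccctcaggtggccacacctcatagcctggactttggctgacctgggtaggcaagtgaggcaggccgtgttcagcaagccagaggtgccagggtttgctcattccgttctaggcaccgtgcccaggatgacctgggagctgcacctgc

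The Lct window held 3 GATAA matches, at -101 to -97, -89 to -85 and -65 to -61 from the start site, and 2 TTTAT matches, of which the distal one overlaps the first GATAA match. The Sis window held 4 TTTAT matches in pairs, at -138 to -129 and between -50 and -39, and 1 ATTAAC match at -165 to -160. The Mgam window held 2 GATAA and 3 TTTAT matches, and the Treh window held no match to the 3 motifs. Of 32851 promoter windows of the same length, 25.4% held GATAA, 40.0% held TTTAT and 7.10% held ATTAAC, so that these short matches are common. Base composition differed too: 34.0% of the Sis window was G or C, 43.0% of Mgam, 44.7% of Lct and 54.7% of Treh, beside a median of 52.7% over all windows.

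By the deposited values per length, Sis was the most abundant of the 4 transcripts, followed by Mgam, Treh and Lct. In TPM (read counts that the authors scaled to gene length and to a common sum) Sis had 1508, 2238 and 1223 in PKCzeta replicates 2-1, 4-1 and 4-2, and 2016, 1907 and 1295 in GFP replicates 1-1, 1-4 and 3-1. It ranked between 35 and 77 among all 45777 genes in each library. Mgam followed with 379, 580 and 447 TPM with the PKCzeta label and 596, 566 and 710 TPM with the GFP label, in the same order of libraries. Treh stood at 52.3, 58.0 and 20.003 TPM with the PKCzeta label and 71.0, 75.6 and 81.5 TPM with the GFP label. Lct was the lowest, with 0.614, 14.0 and 0.597 TPM in the PKCzeta-labelled libraries and 22.2, 41.0 and 6.98 TPM in the GFP-labelled ones.

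The order Sis, Mgam, Treh, Lct was the same within each of the 6 libraries. In TPM the values of Sis lay above those of Mgam, and those of Mgam above those of Treh, over all 6 libraries together. The ranges of Treh and Lct overlapped. Sis supplied 77.8%, 77.4% and 72.3% of the summed TPM of the 4 genes with the PKCzeta label and 74.5%, 73.6% and 61.9% with the GFP label. Lct supplied at most 0.484% with the PKCzeta label and at most 1.58% with the GFP label.

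The distance between Sis and Mgam, and with it the share of each in the summed TPM, depends on the length given to Mgam. Relative to Sis, the deposited values imply for Mgam a length 1.98 times as great, whereas the longest protein-coding transcripts in GENCODE M21 are 6488 bases for Mgam and 5953 for Sis, a ratio of 1.09. For Lct and Treh the implied lengths relative to Sis were 1.001 and 0.999 times those in GENCODE. In TPM, Sis over Mgam was 3.98, 3.86 and 2.73 with the PKCzeta label and 3.39, 3.37 and 1.82 with the GFP label. With counts divided by the GENCODE lengths, an alternative chosen after seeing the data, the ratios were 2.20, 2.13 and 1.51 with the PKCzeta label and 1.86, 1.85 and 1.00405 with the GFP label, so that in GFP replicate 3-1 the 2 transcripts were level.

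**Figure D1:**
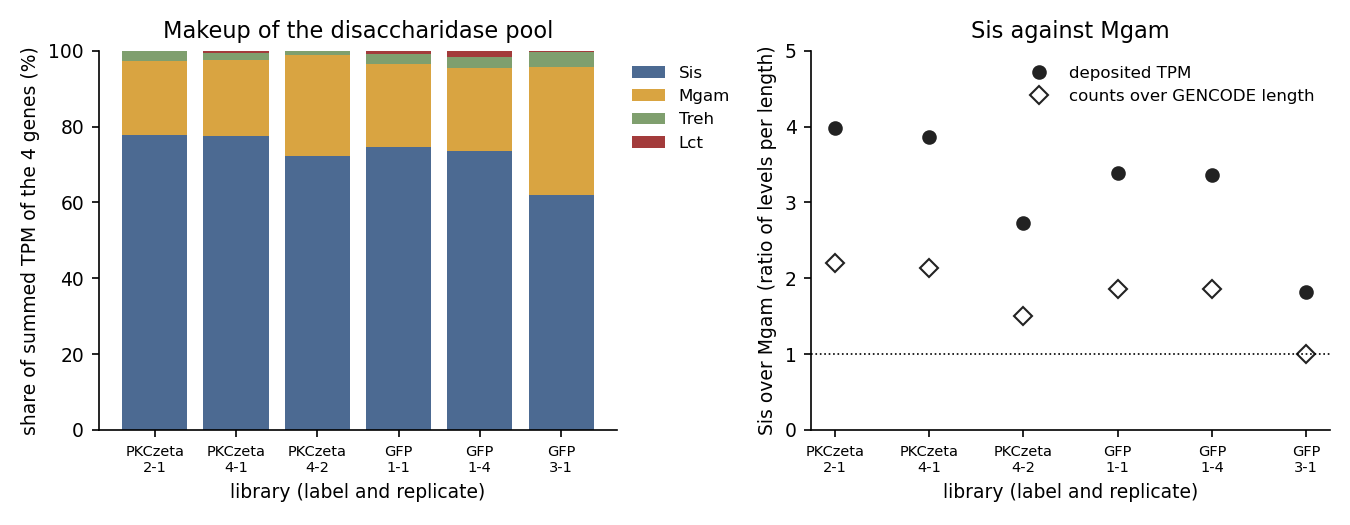
Left, the share of the summed TPM of the 4 genes (in percent) that each gene supplied in each library. Right, Sis over Mgam as a ratio of levels per length in each library, from the deposited TPM (filled circles) and from counts over GENCODE lengths (open diamonds), with a dotted line at equal levels. Sis supplied most of the summed TPM in all 6 libraries, and GFP replicate 3-1 had the lowest ratio of Sis over Mgam on both scales.

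The comparison set the libraries labelled PKCzeta overexpression against those labelled control. With edgeR, 0 of the 4 genes had an adjusted p under 0.05, as had 0 of all 18456 tested genes (0%), of which 1012 (5.48%) had an unadjusted p under 0.05. DESeq2 called 83 of the 19196 genes it gave an adjusted p (0.432%), and limma voom called 0 of 18456 (0%), with no disaccharidase gene among the calls of any of the 3 tools. At an unadjusted p under 0.05 in edgeR, Mgam and Treh (2 of 4) were lower with the PKCzeta label, where 3.07% of all tested genes were lower and 2.41% higher at that level. The p of Treh, 0.04999, lay at the edge of it. The CPM of Mgam and Treh (2 of 4) also lay lower in every PKCzeta-labelled library than in any GFP-labelled one, where 5.66% of all tested genes did and 4.72% lay higher in every PKCzeta-labelled library.

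Mgam had 3743, 4987 and 3289.6 CPM in PKCzeta replicates 2-1, 4-1 and 4-2, and 5924, 5288 and 7695 CPM in GFP replicates 1-1, 1-4 and 3-1. The groups did not overlap, with the nearest pair of libraries being PKCzeta 4-1 and GFP 1-4. Mgam averaged 4007 ± 879 CPM with the PKCzeta label and 6302 ± 1247 CPM with the GFP label (SD, n = 3 each). The edgeR log2 fold change of -0.65 had an SE of 0.26 and a 95% interval from -1.25 to -0.056 (adjusted p 0.877). The exact two-sided permutation p was 0.1, the smallest that 3 against 3 can give. The separation depends on the scale: in TPM, PKCzeta replicate 4-1 (580) lay above GFP replicate 1-4 (566), and the log2 fold change on log2(TPM + 1) was -0.43.

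Treh had 90.0, 87.0 and 25.5 CPM in the PKCzeta-labelled libraries and 122.5, 122.6 and 153.5 CPM in the GFP-labelled ones, in the same order. The groups did not overlap in CPM or in TPM, and PKCzeta replicate 4-2 stood far below the other 5 libraries. Treh averaged 67.5 ± 36.4 CPM with the PKCzeta label and 133 ± 17.9 CPM with the GFP label (SD, n = 3 each). Its log2 fold change was -0.98, with an SE of 0.42 and a 95% interval from -1.96 to -5.56e-05 (adjusted p 0.912 in edgeR, exact permutation p 0.1). With PKCzeta replicate 4-2 left out it was -0.58.

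Lct had 3.20, 63.3 and 2.31 CPM with the PKCzeta label (278, 5146 and 241 counts) and 116, 200.3 and 39.6 CPM with the GFP label (9183, 17526 and 3274 counts). PKCzeta replicates 2-1 and 4-2 were far below the other 4 libraries, while PKCzeta replicate 4-1 lay above GFP replicate 3-1, so the groups overlapped. Lct averaged 22.9 ± 34.9 CPM with the PKCzeta label and 119 ± 80.4 CPM with the GFP label (SD, n = 3 each). The log2 fold change of -2.37 had an SE of 1.33 and a 95% interval from -5.54 to 0.80 (adjusted p 0.917 in edgeR, exact permutation p 0.2). PKCzeta replicate 4-1 moved it most, and without that library it was -5.43, with an edgeR adjusted p of 0.855.

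Sis had 7546, 9763 and 4549.97 CPM with the PKCzeta label and 10119.5, 8990.5 and 7089 CPM with the GFP label. The groups overlapped, with PKCzeta replicate 4-1 second among the 6 libraries and PKCzeta replicate 4-2 lowest. Sis averaged 7286 ± 2616 CPM with the PKCzeta label and 8733 ± 1532 CPM with the GFP label (SD, n = 3 each). Its log2 fold change of -0.26 had an SE of 0.32 and a 95% interval from -1.0005 to 0.48 (adjusted p 0.931 in edgeR, exact permutation p 0.6). It was -0.0036 without PKCzeta replicate 4-2 and -0.53 without PKCzeta replicate 4-1.

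**Figure D2:**
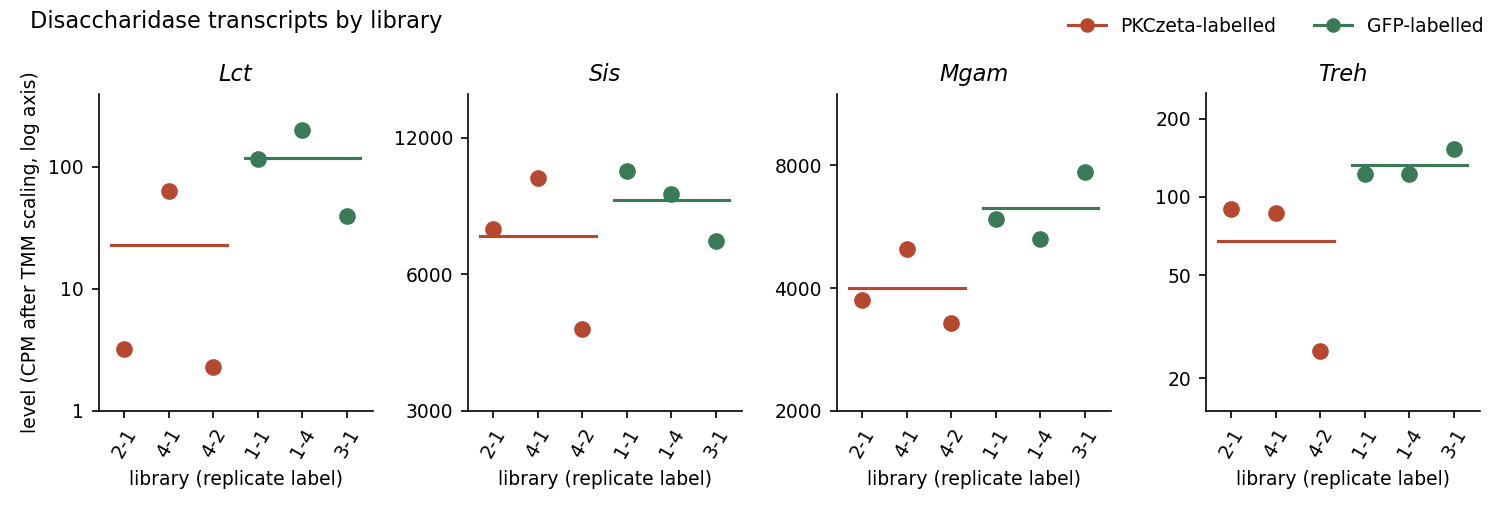
Level of each gene in CPM after TMM scaling (log axes with a range of their own per gene) in each library, with PKCzeta-labelled libraries in red on the left of each panel and GFP-labelled libraries in green on the right. Horizontal lines are group means of 3 libraries. The groups are apart for Mgam and Treh and overlap for Lct and Sis.

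**Figure D3:**
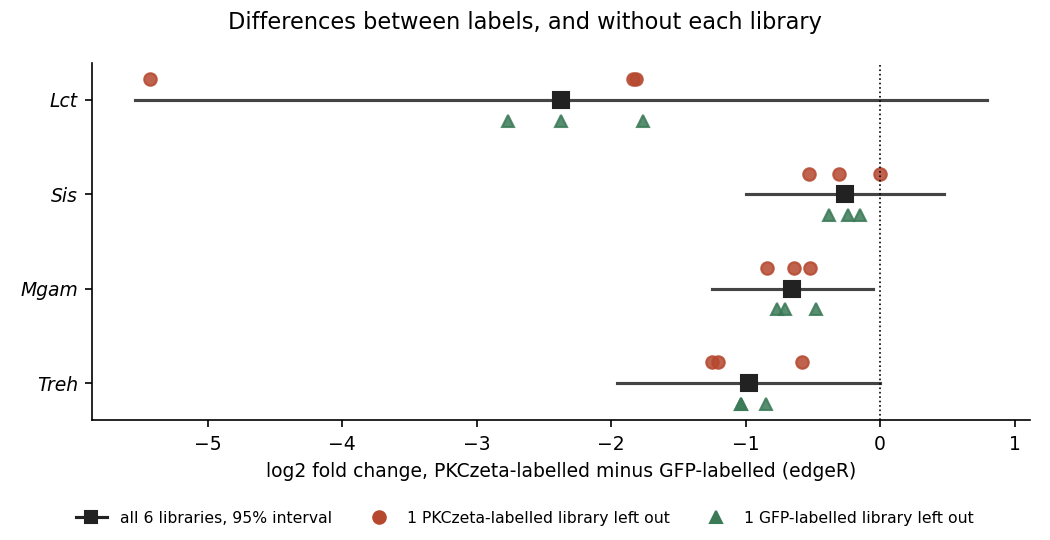
The log2 fold change of each gene, PKCzeta-labelled minus GFP-labelled, from edgeR with its 95% interval (squares and lines), and its value with 1 PKCzeta-labelled library (circles, above) or 1 GFP-labelled library (triangles, below) left out. The values lay below 0 for all 4 genes in these fits, and Lct ran from -5.43 to -1.76.

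The 4 genes differed in how much they varied. From the lowest to the highest library Lct spanned 86.9-fold in CPM, Treh 6.03-fold, Mgam 2.34-fold and Sis 2.22-fold. Within the PKCzeta-labelled libraries alone Lct spanned 27.4-fold, and within the GFP-labelled libraries alone 5.05-fold. The SD of log2 CPM within groups was 2.04 for Lct, larger than that of 99.3% of the 13803 genes with a mean of at least 1 CPM. For Treh it was 0.75 (larger than 92.2%), for Sis 0.44 (73.8%) and for Mgam 0.29 (48.6%).

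Ratios within a library, in which library scaling cancels out, asked whether the genes differed between labels by different amounts. Lct over Sis averaged -9.86 ± 2.20 on the log2 scale with the PKCzeta label and -6.53 ± 0.998 with the GFP label (SD, n = 3 each), a difference of -3.34 with an exact two-sided permutation p of 0.2. Sis over Treh was 28.8, 38.6 and 61.1 with the PKCzeta label and 28.4, 25.2 and 15.9 with the GFP label. These ranges did not overlap (difference of 0.86 on the log2 scale, exact permutation p 0.1, and 0.57 without PKCzeta replicate 4-2), but PKCzeta replicate 2-1 and GFP replicate 1-1 were nearly equal. Of the 6 ratios between members 0 passed 0.05, which 3 against 3 cannot reach, and the exact permutation p adjusted over the 6 ran from 0.3 to 0.5. Mgam over Treh was 7.24, 9.99 and 22.4 with the PKCzeta label and 8.39, 7.49 and 8.71 with the GFP label, so that only PKCzeta replicate 4-2 stood apart.

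A piece of intestine holds muscle, immune and stromal cells beside epithelium, and in such bulk RNA fewer cells of a type and less RNA per cell cannot be told apart. Set against the geometric mean TPM of 6 general epithelial genes (Epcam, Vil1, Krt8, Krt18, Krt19 and Cdh1), Sis was 2.302, 2.92 and 1.15 times as high with the PKCzeta label and 3.27, 1.98 and 1.72 times with the GFP label. The log2 differences of these ratios between labels were -3.51 for Lct, -1.04 for Treh, -0.51 for Mgam and -0.18 for Sis, with exact permutation p from 0.2 to 0.8. Without PKCzeta replicate 4-2 the differences were -2.55 for Lct, -0.36 for Treh, -0.30 for Mgam and 0.21 for Sis. The groups overlapped for each of the 4 on this scale: Treh over epithelial genes was 0.0798 in PKCzeta replicate 2-1, against 0.0788 in GFP replicate 1-4, and Mgam was 0.755 in PKCzeta replicate 4-1, against 0.590 in GFP replicate 1-4.

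None of the cell type and regional markers passed the adjusted threshold in edgeR. Of 8 enterocyte markers 8 had a log2 fold change below 0, and 7 of these reached an unadjusted p under 0.05, beside 3.07% of all tested genes lower at that level. Their summed level was 11520 to 24434 CPM with the PKCzeta label and 32355 to 40864 CPM with the GFP label, lowest in PKCzeta replicate 4-2, where all 4 disaccharidase genes were lowest in CPM as well. The 6 epithelial genes summed to 10433 to 11725 CPM with the PKCzeta label and 10481 to 14481 CPM with the GFP label, and 4 of 6 had a log2 fold change below 0. Smooth muscle markers were lower by fitted value in 8 of 8, by a median log2 fold change of only -0.13. They summed to 951 to 1218 CPM with the PKCzeta label and 592 (GFP replicate 1-4) to 1428 CPM with the GFP label. Leukocyte markers, 7 of 8 higher by fitted value (median 0.49), summed to 225 to 489 CPM with the PKCzeta label and 139.5 to 290.5 CPM with the GFP label. Of all 18456 tested genes, 8443 lay below 0 and 10013 above it by fitted value. Neutrophil markers, 5 of 6 tested higher by fitted value and each of these 5 under an unadjusted edgeR p of 0.05 (2.41% of all tested genes were higher at that level), summed to 6.74 to 45.8 CPM with the PKCzeta label and 2.91 to 6.06 CPM with the GFP label. The part of these cells in the values of the disaccharidase genes was not tested.

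The proximal list held Gata4, Pdx1, Fabp1, Apoa4, Cybrd1, Slc40a1, Ada and Rbp2, of which Fabp1, Apoa4 and Rbp2 also stand in the enterocyte list. Its summed level was 1034, 1526 and 959 CPM in PKCzeta replicates 2-1, 4-1 and 4-2, and 3259, 4455 and 1265 CPM in GFP replicates 1-1, 1-4 and 3-1. The 6 libraries stood in the same order by this sum as by Lct, with GFP 1-4 highest, then GFP 1-1, PKCzeta 4-1, GFP 3-1, PKCzeta 2-1 and PKCzeta 4-2. Apoa4 (mean of 1310.3 CPM) and Ada (448 CPM) made up most of the sum, and single members stood in other orders: Slc40a1 was highest in PKCzeta replicate 2-1 (70.6 CPM), and Ada was lowest in GFP replicate 3-1 (226 CPM). Of the 7 tested members 6 had a log2 fold change below 0 (median -1.07), beside 45.7% of all tested genes. Of these 6, 4 were under an unadjusted edgeR p of 0.05, beside 3.07% of all tested genes lower at that level. Pdx1, which was not tested, had 0 counts in 5 of 6 libraries. The distal list summed to 6312, 7182 and 5662 CPM in PKCzeta replicates 2-1, 4-1 and 4-2. In GFP replicates 1-1, 1-4 and 3-1 it summed to 6601, 7038 and 8952 CPM. GFP replicate 3-1 had the highest distal sum and the lowest Lct of its group. PKCzeta replicate 4-1 had both the highest distal sum and the highest Lct of its group, and PKCzeta replicate 4-2 the lowest of both. Of the 6 members of the distal list 5 had a log2 fold change below 0 (median -0.64), and 4 of these were under an unadjusted edgeR p of 0.05. The shares of all tested genes, 45.7% below 0 and 3.07% lower at that level, apply here too. Which part of the intestine each sample came from was not given, and its part in the spread of Lct was not tested.

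**Figure D4:**
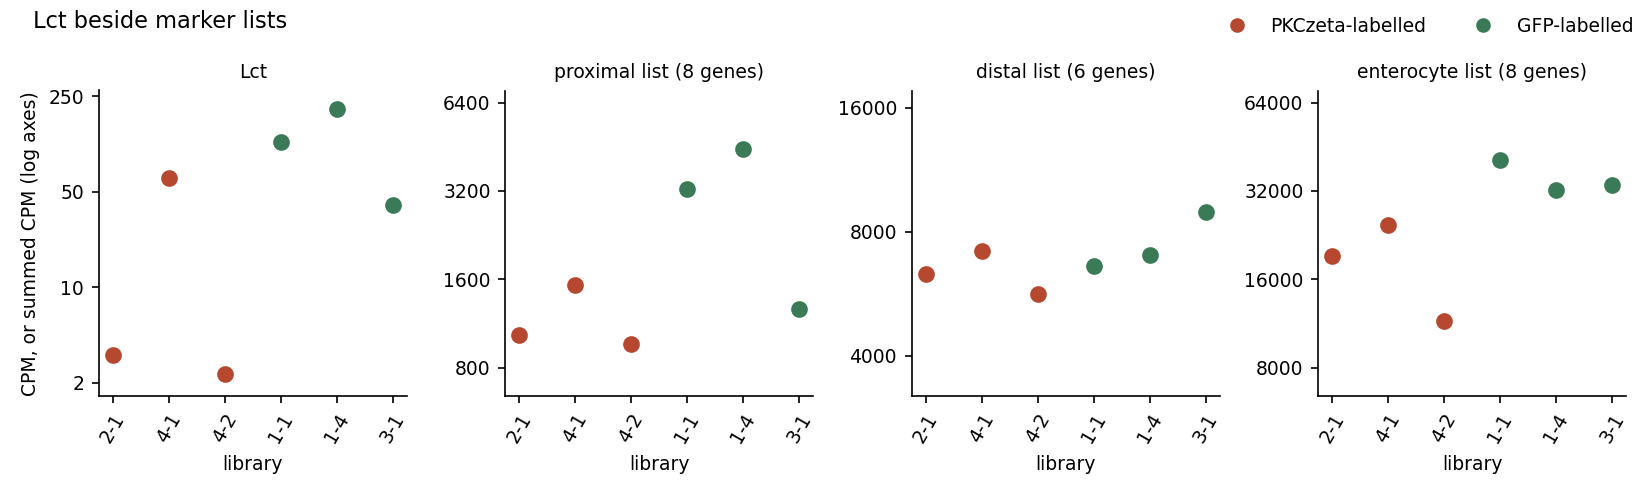
Lct in CPM and the summed CPM of the proximal, distal and enterocyte marker lists in each library (log axes with a range of their own per panel), PKCzeta-labelled in red on the left and GFP-labelled in green on the right. Lct and the proximal list put the 6 libraries in the same order, and the enterocyte list is lower in the 3 PKCzeta-labelled libraries.

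Among the genes that take up the products of these enzymes, none passed the adjusted threshold. In the list of sugar uptake and first steps of sugar use, 10 of 10 members had a log2 fold change below 0, with a median of -0.33 against 0.035 over all tested genes, of which 45.7% were below 0. Slc5a1, the sodium-coupled glucose transporter SGLT1, had 1654, 3050 and 1240 CPM with the PKCzeta label and 2634, 2708 and 2080 CPM with the GFP label (log2 fold change -0.32, SE 0.34), so the groups overlapped. Tkfc, a kinase of fructose breakdown, had -0.36 (SE 0.33). Khk, the fructokinase, was 1 of 2 members whose groups did not overlap, with 109.9, 101 and 54.0 CPM with the PKCzeta label and 123, 165 and 137.5 CPM with the GFP label (log2 fold change -0.68, SE 0.27). It was named after its values were seen, as the 1 member of the list under an unadjusted edgeR p of 0.05. Of all tested genes 3.07% were lower at that level, and 5.66% had every PKCzeta-labelled library below every GFP-labelled one.

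Slc2a2, the glucose and fructose transporter GLUT2 of the enterocyte, was also named after its values were seen. It had 55.0, 171 and 46.1 CPM with the PKCzeta label and 162, 219 and 71.8 CPM with the GFP label. PKCzeta replicates 2-1 and 4-2 were lowest and GFP replicate 1-4 was highest, as for Lct. Unlike for Lct, PKCzeta replicate 4-1 lay above GFP replicate 1-1. The groups of Slc2a2 overlapped (log2 fold change -0.74, SE 0.58).

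The amylases, which begin starch digestion upstream of the disaccharidases, were at or near 0 in these samples. Amy1 was at 0.414, 0.393 and 0.182 CPM with the PKCzeta label and 0.378, 0.560 and 0.412 CPM with the GFP label. The other 6 amylase genes were listed with 0 counts in all 6 libraries. Several of them are near-identical copies, and the authors' counting could have divided or dropped their reads. Of 9 markers of the exocrine pancreas, which makes most amylase, 3 were at 0 in all libraries and the sum did not exceed 0.440 CPM with the PKCzeta label and 0.479 CPM with the GFP label.

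None of the other brush border proteins passed the adjusted threshold. Of 15 tested members of that list 15 had a log2 fold change below 0 (from -0.97 to -0.32, median -0.63), of which 8 were under an unadjusted edgeR p of 0.05, beside 3.07% of all tested genes lower at that level. In 10 of the 15 the groups did not overlap, beside 5.66% of all tested genes, and in the other 5 they did. Enpep, an aminopeptidase of acidic residues, had -0.53 (SE 0.26), Anpep, the aminopeptidase N, had -0.93 (SE 0.40), and the membrane mucin gene Muc13 had -0.72 (SE 0.23). The difference of Mgam (-0.65) thus lay near the middle of this list, that of Treh (-0.98) just below its lowest member, and that of Sis (-0.26) above its highest member.

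Relatives of the disaccharidases work in lysosomes, the endoplasmic reticulum or other tissues. Of 9 members 8 had a log2 fold change below 0 (from -0.40, with a median of -0.22), beside 45.7% of all tested genes. An unadjusted edgeR p under 0.05 was reached by 0 of the 9, beside 5.48% of all tested genes. In 1 of the 9 every PKCzeta-labelled library lay below every GFP-labelled one, beside 5.66% of all tested genes. Kl was at 0.92 with an SE of 0.85, at a mean of only 0.143 CPM. Ganab, the catalytic chain of glucosidase II and of the same enzyme family as Sis and Mgam, had 124, 139 and 150.1 CPM with the PKCzeta label and 146, 187 and 164 CPM with the GFP label (log2 fold change -0.27, SE 0.16). The lysosomal beta-galactosidase gene Glb1 had -0.11 (SE 0.18). Lctl, the lactase-like gene, was under 1 CPM in every library, with 0.368 CPM at most with the PKCzeta label and 0.508 CPM at most with the GFP label.

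Of 11 tested transcription factors of enterocyte genes, 10 had a log2 fold change below 0 (median -0.29), beside 45.7% of all tested genes. Of these 10, 2 (Gata4 and Gata6) were under an unadjusted edgeR p of 0.05, beside 3.07% of all tested genes lower at that level. The adjusted threshold was passed by 0 of the 11, as by 0 of all 18456 tested genes. Hnf4a had 446, 393 and 498 CPM with the PKCzeta label and 512, 563 and 602 CPM with the GFP label (log2 fold change -0.33, SE 0.17), without overlap. Hnf4g had -0.15 (SE 0.34) and Cdx2 had -0.19 (SE 0.17), both with overlapping groups. Gata4, Gata6 and Hnf4a were the 3 of 11 whose groups did not overlap, beside 5.66% of all tested genes with lower and 4.72% with higher values in every PKCzeta-labelled library. Gata4 was named after its values were seen and because the Lct promoter, like that of Mgam, holds GATAA matches. It was at 1.12, 0.738 and 1.08 CPM with the PKCzeta label and 7.22, 9.70 and 1.79 CPM with the GFP label. Gata4 did not follow Lct in every library: PKCzeta replicate 4-1 had the third highest Lct and the lowest Gata4. The other GATA factors in the list were more abundant, with means of 41.6 CPM for Gata6 and 39.0 CPM for Gata5, against 3.61 CPM for Gata4. Gata6 had a log2 fold change of -0.60 (SE 0.17). Gata5 had -0.40 (SE 0.24) with overlapping groups. Whether any of these factors acted on the disaccharidase genes was not tested.

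**Figure D5:**
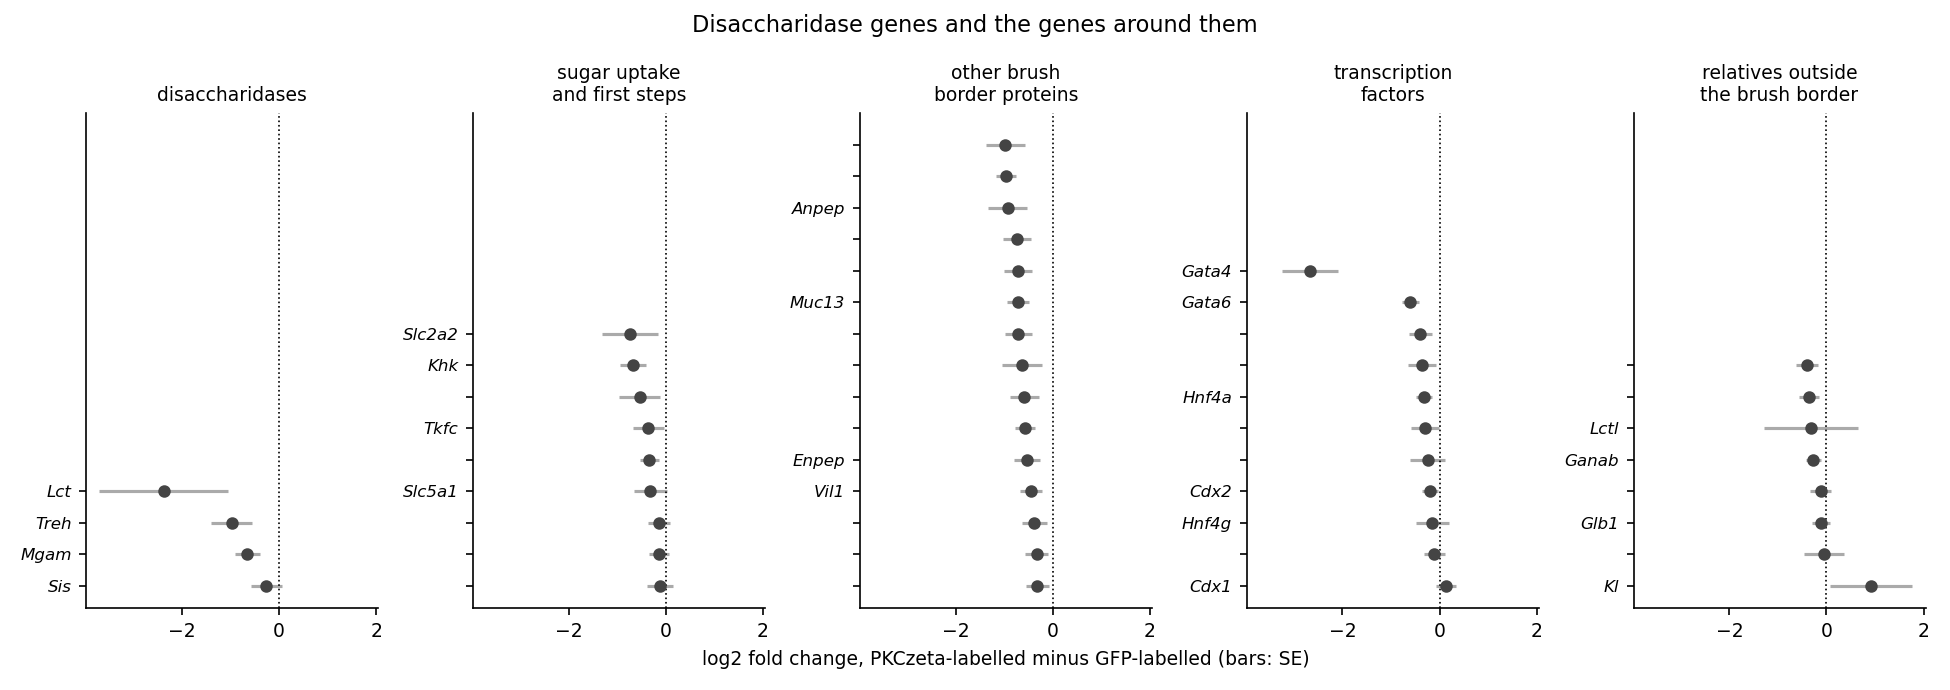
The log2 fold change, PKCzeta-labelled minus GFP-labelled, of the tested genes in 5 lists, with bars of 1 SE. Names mark the genes described in the text other than Gata5, and 2 list members are not shown. The 4 disaccharidase genes, the 9 genes of sugar uptake shown and the 15 other brush border genes lay below 0, Cdx1 and Kl above it.

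The genes most like each disaccharidase gene were found by Pearson's r of log2 CPM over the 6 libraries, among 8023 other protein-coding genes with a mean of at least 10 CPM. The r rests on 6 libraries that share their scaling, and it is given as a description. For Lct they were C530008M17Rik (0.994), Aldh9a1 (0.992) and Nr1i2 (0.987). Nr1i2 ran from 47.9 to 68.6 CPM with the PKCzeta label and from 62.9 to 82.4 CPM with the GFP label, a far smaller span than that of Lct. For Sis they were Adap2 (0.995), Lrrc31 (0.987) and Vapa (0.985), and for Mgam they were Adcy8 (0.984), Abhd2 (0.981) and Cln8 (0.980). For Treh they were Barx2 (0.998), 2010106E10Rik (0.998) and Susd2 (0.996). Susd2 had 102, 106 and 25.7 CPM with the PKCzeta label and 172, 177 and 210.5 CPM with the GFP label, with PKCzeta replicate 4-2 lowest and GFP replicate 3-1 highest, as for Treh.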

How the data were processed

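Total RNA was sequenced from 6 libraries of mouse small intestine, 3 labelled PKCzeta overexpression and 3 labelled GFP control, after depletion of ribosomal RNA and with strand-specific libraries, per the labels' protocols. The submitters' processing notes name mm10 and, in no order, HISAT2, StringTie, Trimmomatic and FastQC. The sources used here do not say which program counted the reads or whether strand was used. Columns of raw counts, of FPKM and of TPM for every library make up the deposited table, per the file headers. The deposited counts carry no normalisation. The FPKM values, scaled to length and depth by the authors, served as an alternative scale, and the TPM values, scaled by the authors to a fixed sum, served for levels between genes and for ratios.

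Counts were tested in edgeR 4.0.16 (R 4.3.3) over all 18456 genes that passed filterByExpr, with TMM scaling, a robust quasi-likelihood F test, two-sided, and Benjamini-Hochberg adjustment at 0.05. CPM values are TMM-scaled, and log2 CPM used a prior count of 2. Exact permutation tests ran over the 20 arrangements of the libraries. Alternatives were DESeq2 1.42.0, limma 3.58.1 (voom, and log2(TPM + 1) and log2(TPM + 0.1)), other scalings and filters, the table less 736 rows (mitochondrial genes, receptor segments and ribosomal RNA), and the fit with each library removed in turn. The edgeR step was also run on simulated counts with known differences, and the outcome of that run is not given here. Of the 45777 gene IDs, 45679 matched the RefSeq table, and all 4 promoters were matched by gene ID.

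Named genes are the 4 members, Prkcz, the 3 tested members of each of 5 pathway lists with the highest mean CPM, and the 3 genes most like each member, less 2 list members that are not reported here. Others are named as chosen after their values were seen, or because a sentence turns on them. The members and lists were chosen with earlier results of these data known.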

Additional observations from a re-analysis of the deposited data

How the results depend on the processing

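The log2 fold changes of Lct, Sis, Mgam and Treh stayed below 0 and short of the adjusted threshold in each of the 15 alternatives run for each gene. They ran from -5.43 to -1.76 for Lct, from -0.53 to -0.0036 for Sis, from -0.84 to -0.43 for Mgam and from -1.25 to -0.58 for Treh, with adjusted p from 0.462 (Mgam, DESeq2) upward. The median of all tested genes moved to 0.14 on log2(TPM + 1) and 0.23 on log2(TPM + 0.1), against 0.035 in edgeR; relative to it Sis was at -0.23 and -0.32, against -0.30. The count of all genes past the threshold was 0 in the other alternatives and 83 in DESeq2. The count of disaccharidase genes whose groups do not overlap was 2 in CPM. It was 1 (Treh) in deposited TPM, in deposited FPKM and in CPM with no TMM scaling. The TMM factors ran from 1.002 to 1.19 with the PKCzeta label and from 0.881 to 0.974 with the GFP label. With 1 library left out the count was 2 to 3, but smaller groups lie apart more easily. The share of all tested genes was not taken for these alternatives, which were chosen after seeing the data. The log2 difference of Sis over epithelial genes turned to 0.11 with Vil1 alone and ran from -0.46 to 0.21 with 1 library left out, positive without PKCzeta replicate 4-2 (0.21) and without GFP replicate 1-1 (0.099). The cause was not tested. The other 9 ratios kept their sign in the 8 alternatives run for each, but without PKCzeta replicate 4-2 Treh over epithelial genes was -0.36, against -1.04, and Mgam was -0.30, against -0.51. No paired analysis was possible because the groups share no replicate label. With 3 libraries a group the precision is limited, and depth was not varied. Amy1, Lctl and Kl, below 1 CPM, rest on few counts.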
